A study of Mus musculus with 12 samples.

Results

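The 9 genes described here carry the calcium/calmodulin signal in neurons. Camk2a, Camk2b, Camk2d and Camk2g encode the alpha, beta, delta and gamma subunits of calcium/calmodulin-dependent protein kinase II (CaMKII), and Camk4 encodes kinase IV. Ppp3ca encodes the alpha catalytic subunit of the phosphatase calcineurin, Nrgn encodes neurogranin, and Calm2 and Calm3 encode calmodulin itself. They were taken by symbol as one signalling group and make up 9 of 32546 genes in the deposited table. When calcium enters a neuron, calmodulin binds it and switches on the kinases and the phosphatase, which act on many of the same synaptic proteins in opposite ways. Neurogranin holds calmodulin at the postsynaptic side while calcium is low.

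The study measured RNA from small lit areas of mouse hippocampus sections with photo-isolation chemistry, in which cDNA is made inside the tissue from light-sensitive primers and only cDNA under the light becomes free to be amplified. Sections came from male ICR mice (Slc:ICR in the paper) aged 8 weeks, and the lit regions were the pyramidal fields CA1 and CA3 and the dentate gyrus (DG). The series text names CA2 in a place where the sample titles and the paper name CA3; CA3 is used here. There were 4 histological conditions. Fresh-frozen HCl sections were treated with 0.1 N HCl for 5 min, fresh-frozen TE sections were heated in Tris-EDTA (TE) buffer at 70 °C for 1 h, fixed frozen TE sections came from tissue fixed with 4% paraformaldehyde, and paraffin TE sections came from fixed tissue embedded in paraffin; both of the last were also heated in TE. The paper's protocol also post-fixes every kind of section briefly in 4% paraformaldehyde, fresh-frozen ones included. Each of the 12 groups (3 regions by 4 conditions) was 1 sequencing library that pooled 4 replicates with their own barcodes, 48 replicates in all.

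The unit of the table is the UMI, a random tag of 6 bases that marks each cDNA molecule, so that copies of a molecule are counted once. The total per replicate ran from 35932 to 1111804 UMIs. Its median was 731106 in fresh-frozen HCl, 629964 in fresh-frozen TE, 122520 in fixed frozen TE and 67528 in paraffin TE. Levels are given as CPM, the UMIs of a gene divided by all UMIs of the replicate and multiplied by 1e6, with the mean and SD of 4 replicates. CPM was not divided by gene length because each cDNA is counted once, at its 3′ end. Region and library cannot be told apart within a condition, because each region was its own library. In bulk samples such as these, fewer cells of a type and less RNA per cell cannot be told apart.

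All 9 genes had at least 1 UMI in 48 of 48 replicates. Ppp3ca was the most abundant of them, with 70788 UMIs over all replicates and rank 6 of 32546 genes. Camk2a ranked 23 with 36175 UMIs, Nrgn 33 with 31520 and Camk2b 56 with 23474. Calm3 ranked 69 with 20707 UMIs and Calm2 197 with 11042. The other 3 were lower: Camk4 ranked 638 with 5283 UMIs, Camk2d 1400 with 2845 and Camk2g 1618 with 2500. These low ranks set the precision of what follows, since Camk2d had under 10 UMIs in 12 replicates, and Camk2g and Camk4 in 3 replicates each. Ranks by summed UMIs weigh the deep replicates most, and by mean CPM over the 12 groups the order differed. Nrgn (1724 CPM) and Calm3 (1704) were then above Camk2a (1574) and Camk2b (1416), and Camk2g (176) was above Camk2d (135).

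A 6-base tag has 4096 different sequences, so a gene with many molecules in a replicate meets the same tag more than once and its count falls short. Ppp3ca reached 3284 UMIs in a replicate, 80.2% of the 4096, and passed 50% in 18 replicates. The number of molecules that would leave that many different tags, if every tag is equally probable, is 2.02 times the count. Camk2a reached 2147 UMIs (52.4%), with a factor of at most 1.42, and passed 50% in 1 replicate. Nrgn reached 47.6% (factor 1.36), Camk2b 29.3% (1.18), Calm3 26% (1.16) and Calm2 18.3% (1.10). Camk4, Camk2d and Camk2g stayed at or under 10.6%. Counts near the limit were in the deep replicates, so fold changes of Ppp3ca between fresh-frozen and fixed tissue are also given with corrected counts. The deposited counts hold 18 values above 4096, all of 1 other gene, the largest 4356.

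**Figure D1:**
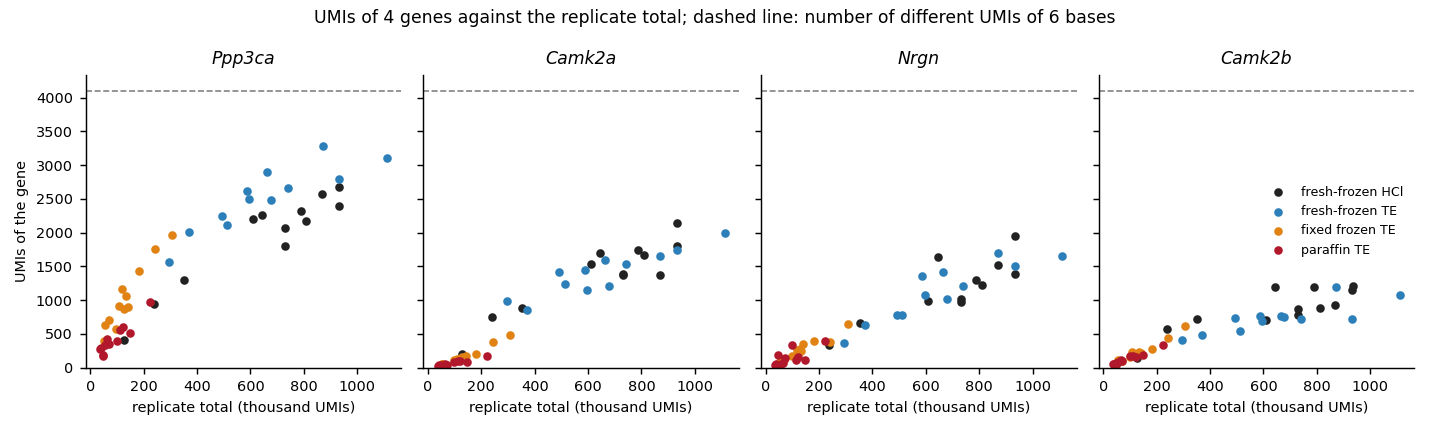
UMIs of Ppp3ca, Camk2a, Nrgn and Camk2b in each of the 48 replicates (y axis) against the total UMIs of the replicate (x axis), with a dashed line at the 4096 different tags. Points are replicates, and Ppp3ca comes closest to the line, at 3284 UMIs.

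Camk2a encodes the CaMKII subunit that predominates in forebrain excitatory neurons, and its mRNA is carried into dendrites (ENSMUSG00000024617, chromosome 18, 60925618 to 60988152, plus strand of the genome build GRCm38). Its level was close in both fresh-frozen conditions and lower in both fixed ones. In fresh-frozen HCl it averaged 1892 ± 432 CPM in CA1, 2045 ± 183 in CA3 and 2626 ± 392 in DG. In fresh-frozen TE the replicates read 1895, 2395, 2064 and 2321 CPM in CA1, 1777, 1799.8, 1867 and 2407 in CA3 and 2869, 2450.03, 1933 and 3352 in DG. DG had the highest mean in both, and all 3 regions overlapped each other (TE means 2169 ± 231, 1963 ± 299 and 2651 ± 604 CPM). The fixed frozen TE replicates read 637, 1095, 1074 and 922 CPM in CA1, 1099.9, 1214, 1221 and 909 in CA3 and 1044, 1586, 1584 and 1174 in DG. Those replicates rose from CA1 to CA3 to DG by mean (932 ± 211, 1111 ± 146 and 1347 ± 279.8 CPM) with overlap between all 3, and CA1 replicate 1 was the lowest of the 12. In paraffin TE they read 555, 648, 593 and 640.1 CPM in CA1, 794, 756, 648 and 902 in CA3 and 583, 854, 798 and 840.3 in DG. Every CA1 replicate was under every CA3 replicate there, while DG overlapped both (means 609 ± 43.4, 775 ± 105 and 769 ± 126 CPM). The highest CA1 value (647.9 CPM) and the lowest CA3 value (648.4) lay closer than 1 UMI, which was 18 and 20.9 CPM in those replicates. CA1 and CA3 were fully apart in paraffin TE for 530 of 7495 genes (7.07%).

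Camk2b encodes the CaMKII subunit that also binds actin (ENSMUSG00000057897, chromosome 11, 5969644 to 6066362, minus strand). Its mean was highest in DG in all 4 conditions. In fresh-frozen HCl the replicates read 1056, 1162, 1059 and 1163 CPM in CA1, 1235, 1286, 1085 and 1184 in CA3 and 2032, 1857, 1517 and 2361 in DG. Every DG replicate was above every replicate of CA1 and CA3, which overlapped each other (means 1110.2 ± 60.6, 1198 ± 85.8 and 1942 ± 352 CPM). In fresh-frozen TE the replicates read 1370.1, 1149, 974 and 1306 CPM in CA1, 1107, 969.6, 768 and 1065 in CA3 and 1484, 1307, 1148 and 1403 in DG. DG was clear of CA3 but not of CA1 (means 1199.8 ± 177, 977 ± 151 and 1335 ± 145 CPM). Fixed frozen TE gave 1506, 1504, 1543 and 2085 CPM in CA1, 1579, 1475, 1433 and 1326 in CA3 and 1759, 2002, 1794 and 2083 in DG, with the same pattern of overlap and CA1 replicate 4 above the rest of its region (means 1659.5 ± 284, 1453 ± 105 and 1909.6 ± 157 CPM). In paraffin TE they read 918, 1422, 1271 and 1586 CPM in CA1, 1233, 1672, 1422 and 1328 in CA3 and 1288, 1458, 1519.8 and 1727 in DG. All regions overlapped there (means 1299 ± 285, 1414 ± 189 and 1498 ± 181 CPM). The ratio of its highest to its lowest group mean was 1.99, the smallest such ratio of the 9 genes in CPM. With counts corrected for repeated tags, the ratio of Nrgn (2480 to 1149 CPM) was slightly smaller than that of Camk2b (2097 to 963 CPM).

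Camk2d encodes a CaMKII subunit found in many tissues (ENSMUSG00000053819, chromosome 3, 126596302 to 126846326, plus strand). Its means rose from CA1 to CA3 to DG in all 4 conditions, though in paraffin TE the order of CA1 and CA3 rested on 1 replicate. In fresh-frozen HCl the replicates read 93, 88.5, 78.2 and 118 CPM in CA1, 122, 126, 125 and 108 in CA3 and 184, 144, 188 and 129.8 in DG. DG was above both other regions in every replicate, and CA1 and CA3 overlapped (means 94.4 ± 16.8, 120.3 ± 8.37 and 162 ± 29 CPM). In fresh-frozen TE the replicates read 172, 167, 149 and 105 CPM in CA1, 178, 223, 226 and 188 in CA3 and 262, 279, 275 and 241 in DG. All 3 regions were fully apart there (means 148 ± 30.5, 204 ± 24.4 and 264 ± 17.2 CPM). After fixation, in fixed frozen TE, they read 29, 16.6, 8.53 and 36.9 CPM in CA1, 61.1, 84.7, 86.1 and 94.7 in CA3 and 104, 111, 119.6 and 147 in DG, from 2, 3, 1 and 2 UMIs in CA1 and 6, 12, 11 and 5 in CA3. The regions were again fully apart (means 22.7 ± 12.6, 81.7 ± 14.4 and 120.4 ± 18.7 CPM), on few molecules. Summed over the 4 replicates, CA1 had 8 Camk2d UMIs of 421409 and DG 93 of 792727, a DG to CA1 ratio of 6.18 with an exact 95% interval of 3.01 to 14.7. CA3 had 34 of 420412, a CA3 to CA1 ratio of 4.26 (1.94 to 10.7); these intervals cover counting error only. In paraffin TE the replicates read 149, 108, 84.8 and 83.5 CPM in CA1, 91, 101, 83.7 and 276 in CA3 and 197, 187, 121 and 109 in DG. Regions overlapped, and CA3 replicate 4 stood alone with 11 UMIs of the 36 in CA3. Without it the mean of CA3 was under that of CA1, and the medians of all 4 replicates of CA1 and CA3 were 96.4 and 95.9 CPM (means 106 ± 30.8, 138 ± 92.2 and 153 ± 44.7 CPM). The Camk2d gene overlaps 8 other gene models, 7 of them on the same strand with 5 to 92 UMIs of their own. How reads in the shared stretches were divided was not tested.

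Camk2g encodes the gamma subunit, which has been linked to carrying calmodulin to the nucleus (ENSMUSG00000021820, chromosome 14, 20734875 to 20794088, minus strand). CA3 had its lowest mean in all 4 conditions. In fresh-frozen HCl the replicates read 219, 177, 136 and 126 CPM in CA1, 109, 70.7, 70.4 and 94.4 in CA3 and 202, 179.9, 165 and 239 in DG. Every CA3 replicate was under every replicate of the other regions, and CA1 and DG overlapped (means 164 ± 42.6, 86.2 ± 19.1 and 196 ± 32 CPM). In fresh-frozen TE they read 110.2, 101, 89.1 and 140.3 CPM in CA1, 115, 87.2, 83.6 and 106 in CA3 and 146, 119, 126 and 112 in DG, with overlap throughout (means 110.2 ± 21.9, 97.8 ± 14.9 and 126 ± 14.8 CPM). Fixed frozen TE replicates read 232, 144, 128 and 184 CPM in CA1, 143, 141, 93.9 and 94.7 in CA3 and 328, 273, 140.2 and 367 in DG. DG had the highest mean but its replicate 3 fell among the CA1 and CA3 values (means 172 ± 46.4, 118 ± 27.5 and 277 ± 99 CPM). In paraffin TE the means were 297 ± 74.7 CPM in CA1, 197 ± 73.1 in CA3 and 274 ± 46.6 in DG, and all regions overlapped.

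Camk4 encodes a kinase of the neuronal nucleus that acts on transcription factors (ENSMUSG00000038128, chromosome 18, 32934931 to 33191228, plus strand). It was highest in CA3, then CA1, and lowest in DG in all 4 conditions. In fresh-frozen HCl the replicates read 357, 275, 312 and 306 CPM in CA1, 307, 466, 341 and 327 in CA3 and 148, 157, 183 and 138 in DG. CA1 and CA3 overlapped, and both were above every DG replicate (means 313 ± 33.7, 360.01 ± 71.9 and 156 ± 19.2 CPM). In fresh-frozen TE they read 243, 294, 416 and 251 CPM in CA1, 309.5, 354, 457 and 358 in CA3 and 211, 165, 215 and 139 in DG, again with both pyramidal fields clear of DG (means 301 ± 79.8, 369.5 ± 62.1 and 183 ± 36.7 CPM). Replicates of fixed frozen TE read 275, 188, 205 and 166 CPM in CA1, 316, 268, 344 and 492 in CA3 and 171, 149.8, 252 and 91.7 in DG. CA3 was clear of DG there, and CA1 overlapped both (means 208 ± 47.2, 355 ± 96.7 and 166 ± 66.2 CPM). In paraffin TE the same order held with overlap between all 3, at 236 ± 97.5 CPM in CA1, 272 ± 71.3 in CA3 and 169.8 ± 35.1 in DG. An antisense model inside the gene had 3 UMIs in all.

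Ppp3ca encodes the main catalytic subunit of calcineurin in brain (ENSMUSG00000028161, chromosome 3, 136670124 to 136937727, plus strand). It had the highest mean of the 9 genes in every group. In fresh-frozen HCl the replicates read 2822, 3599.9, 2953 and 3222 CPM in CA1, 2562, 2857, 2688 and 2471 in CA3 and 3701, 3497, 2952 and 3965 in DG. CA3 was lowest and clear of DG, and CA1 overlapped both (means 3149 ± 343, 2645 ± 167 and 3529 ± 429 CPM). In fresh-frozen TE they read 3771, 4367, 3589 and 5426 CPM in CA1, 3667, 2787, 2997 and 4113 in CA3 and 4564, 4459, 4201 and 5322 in DG, with the same order and overlaps (means 4288 ± 828, 3391 ± 610.4 and 4636 ± 482 CPM). Those of fixed frozen TE read 10212, 7917, 9906 and 11586 CPM in CA1, 5795, 6373, 6787 and 7386 in CA3 and 7887, 6401, 7268 and 8348 in DG. CA1 was then highest, clear of CA3, and overlapped DG at 1 value (means 9905 ± 1514, 6585 ± 671 and 7476 ± 842 CPM). In paraffin TE they read 3969.9, 5957, 5029 and 7709 CPM in CA1, 4947, 3959, 3493 and 7117 in CA3 and 3485, 4988, 4331 and 6567 in DG, with overlap throughout and replicate 4 highest in each region (means 5666 ± 1585, 4879 ± 1611 and 4842 ± 1304 CPM). With counts corrected for repeated tags the order in fresh-frozen TE turned, with CA1 above DG (means 6323 ± 769, 4814 ± 336 and 6017 ± 234 CPM). In paraffin TE the corrected mean of CA3 (5021.5 CPM) was under that of DG (5079.9), also a turn. That correction moved 7 of its 12 group means by at least 1 SD and raised its mean over the 12 groups from 5083 to 5960 CPM.

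Nrgn encodes a postsynaptic protein that binds calmodulin (ENSMUSG00000053310, chromosome 9, 37544492 to 37552904, minus strand). It varied little between regions outside paraffin TE. In fresh-frozen HCl it averaged 1661 ± 269 CPM in CA1, 1619.9 ± 316 in CA3 and 1855 ± 491 in DG. In fresh-frozen TE it averaged 1851 ± 232 CPM in CA1, 1528 ± 62.7 in CA3 and 1736 ± 445 in DG. Regions overlapped in both, except that every CA1 replicate was above every CA3 replicate in fresh-frozen TE. The margin was narrow, with the lowest CA1 value at 1638 CPM and the highest CA3 value at 1621. CA1 and CA3 were fully apart in fresh-frozen TE for 1388 of 14544 genes (9.54%). With counts corrected for repeated tags the means there were 1978.5 ± 353 CPM in CA1 and 1625.5 ± 139 in CA3. The replicates of fixed frozen TE read 1622, 2178, 2268 and 1494 CPM in CA1, 1691, 2442, 2121 and 1458 in CA3 and 1774, 2097, 1559 and 1505 in DG, all overlapping (means 1891 ± 389, 1928 ± 439 and 1734 ± 269 CPM). In paraffin TE the replicates read 854, 1062, 2048 and 1113 CPM in CA1, 1233, 3375, 3890.3 and 1328 in CA3 and 807, 978, 1739 and 1105 in DG. CA3 replicates 2 and 3 were far above the rest, CA3 replicates 1 and 4 lay among the values of CA1 and DG, and replicate 3 was the highest of its region in all 3 regions. The CA3 mean therefore had a wide SD (1269 ± 531, 2457 ± 1375 and 1157 ± 407 CPM).

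Calm2 encodes calmodulin, the same protein as Calm3 (ENSMUSG00000036438, chromosome 17, 87433412 to 87446935, minus strand). In 3 of 4 conditions it was highest in CA1 and lowest in DG. In fresh-frozen HCl the replicates read 685, 726, 864 and 605 CPM in CA1, 298, 356, 264 and 356 in CA3 and 267, 288, 214 and 293 in DG. CA1 was above both other regions in every replicate, and CA3 and DG overlapped (means 720.1 ± 108, 318 ± 45.1 and 266 ± 36 CPM). In fresh-frozen TE they read 589, 446, 421 and 480.3 CPM in CA1, 398, 364, 371 and 459 in CA3 and 327, 382, 300.3 and 346 in DG. CA1 was clear of DG, and CA3 overlapped both (means 484 ± 74, 398 ± 43.3 and 339 ± 34.2 CPM). With fixation, in fixed frozen TE, they read 3013, 3091, 3120.3 and 3376 CPM in CA1, 2118, 1856, 2019.7 and 2027 in CA3 and 1744, 1563, 1699 and 1669.7 in DG, and the regions were fully apart (means 3150.01 ± 158, 2005 ± 109 and 1669 ± 77.2 CPM). In paraffin TE they read 406, 756, 975 and 779 CPM in CA1, 935, 1339.9, 1443 and 1353 in CA3 and 664, 880.2, 919 and 887 in DG. There CA3 was highest and clear of DG, and CA1 was lowest with overlap to both (means 729 ± 237, 1268 ± 227 and 838 ± 117 CPM). CA3 and DG were fully apart in paraffin TE for 852 of 9380 genes (9.08%). The highest group mean of Calm2 was 11.9 times its lowest, the largest such ratio of the 9 genes in CPM. After TMM scaling the ratio of Camk2d (299 to 21.2 CPM) was larger than that of Calm2 (2996 to 279 CPM).

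Calm3 encodes the same calmodulin protein from another locus (ENSMUSG00000019370, chromosome 7, 16915379 to 16924114, minus strand). CA1 had its highest mean in all 4 conditions, with overlap between all regions in each, though in paraffin TE the mean of CA3 was the higher after TMM scaling, or without CA1 replicate 1 or 4 or CA3 replicate 2 or 3. In fresh-frozen HCl it averaged 1228 ± 335 CPM in CA1, 996 ± 129 in CA3 and 953 ± 130.4 in DG. In fresh-frozen TE the replicates read 1170.2, 865, 806 and 1149 CPM in CA1, 992, 714, 601 and 791 in CA3 and 1102, 825, 842 and 818 in DG, with means of 998 ± 189, 775 ± 164 and 897 ± 137 CPM. Both fixed conditions were higher. Fixed frozen TE replicates read 2940.4, 2084, 2242 and 3579 CPM in CA1, 2292, 1496, 2012 and 2633 in CA3 and 2594, 1651, 2108 and 3083 in DG, with means of 2712 ± 688, 2108 ± 480.4 and 2359 ± 617 CPM. In paraffin TE it averaged 2599.8 ± 457 CPM in CA1, 2577 ± 739 in CA3 and 2247 ± 245 in DG.

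**Figure D2:**
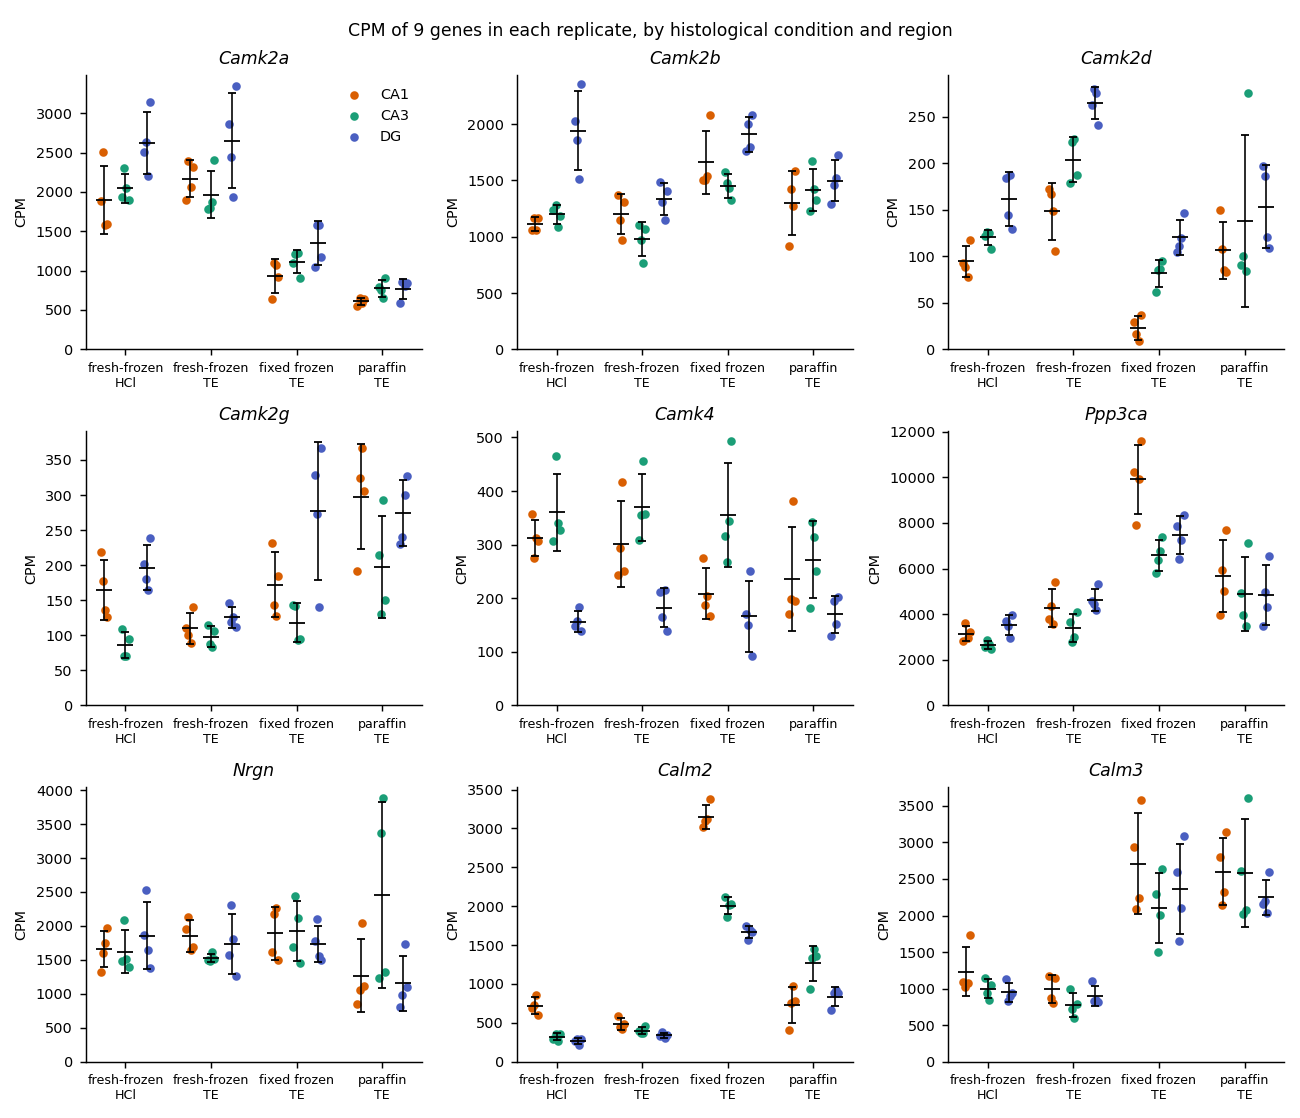
CPM (y axis, linear and starting at 0) of each of the 9 genes in CA1, CA3 and DG under the 4 histological conditions (x axis). Points are the 4 replicates of a group with the mean and SD, and Calm2 and Calm3 stand higher in fixed frozen TE than in either fresh-frozen condition while Camk2a and Camk2d stand lower.

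Regions were compared first over all 12 libraries, which asks whether a difference between regions holds across histological conditions. The UMIs of the 4 replicates were summed per library, and edgeR's quasi-likelihood test was fitted to all genes with at least 10 UMIs, with condition as a covariate. A log2 fold change is written as the first group over the second, with its standard error (SE). P-values were adjusted for the number of genes fitted (Benjamini-Hochberg), and a gene counts as called when its adjusted p is under 0.05. The shares of all genes set beside the members include many genes with few UMIs and were not matched for abundance. With edgeR's stricter filter filterByExpr, 440 of 2346 genes were called for CA1 over CA3 in fixed frozen TE, against 597 of 8286. In paraffin TE these were 125 of 953 and 177 of 7495. An excess of members over all genes can therefore reflect their abundance. The paper calls the 4 replicates biological, but the sources used here do not tie them to animals, so p-values between replicates measure only the spread between these barcoded replicates, which may share animals, and they are then too small.

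From CA1 to DG, Camk2d was lower in CA1, while Camk4 and Calm2 were higher. The other 6 genes were not called. The called members were 3 of 9 (2 higher in CA1, 1 lower), beside 1920 of 18884 genes (10.2%) in the whole table. Camk2d had a log2 value of −1.03 (SE 0.19, adjusted p 1.76e-06) and was lower in CA1 in 4 of 4 conditions. Camk4 had 0.63 (SE 0.17, adjusted p 0.00509) and was higher in 4 of 4. Calm2 had 0.76 (SE 0.16, adjusted p 7.71e-05) and was higher in 3 of 4, the exception being paraffin TE. Camk2a, at −0.39 (adjusted p 0.105), was called by DESeq2 alone, at −0.35 (adjusted p 0.0325). Without the fresh-frozen HCl libraries the count fell to 1, with Camk4 at 0.52 (adjusted p 0.112) and Calm2 at 0.48 (adjusted p 0.116). Without the fresh-frozen TE libraries Camk4 was at 0.58 (adjusted p 0.1).

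From CA3 to DG, Camk4 was higher in CA3 and Camk2g was lower. Both had the same direction in each condition, but by tests within single conditions Camk4 was not called in paraffin TE, nor Camk2g in fresh-frozen TE and paraffin TE. These were 2 of 9 genes (1 higher, 1 lower), beside 1544 of 18884 genes (8.18%) of the whole table. Camk4 had 0.96 (SE 0.17, adjusted p 1.65e-06), and Camk2g had −0.77 (SE 0.17, adjusted p 0.00032), each with means in that direction in 4 of 4 conditions. Both were called in each fit that left out the 3 libraries of 1 condition. Camk2b, at −0.38 (adjusted p 0.136), was called only without the paraffin TE libraries, at −0.48 (adjusted p 0.0487).

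Between CA1 and CA3, Camk2d was lower in CA1. No other member was called. That was 1 of 9 genes, beside 881 of 18884 genes (4.67%). Camk2d had −0.59 (SE 0.19, adjusted p 0.0434) and was lower in CA1 in 4 of 4 conditions, or in 3 of 4 when CA3 replicate 4 of paraffin TE is left out of the means. It was not called without the fresh-frozen HCl libraries (−0.65, adjusted p 0.114), the fresh-frozen TE libraries (−0.71, adjusted p 0.13) or the fixed frozen TE libraries (−0.42, adjusted p 0.36), nor by DESeq2 or with no filter. Calm2, at 0.44 (adjusted p 0.107), was called without the paraffin TE libraries, at 0.74 (adjusted p 0.000578), which made the count 2. Camk2g had 0.53 (adjusted p 0.0555), and was called with DESeq2's size factors at 0.53 (adjusted p 0.0367). The 3 comparisons of regions share libraries, so they are not independent.

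Within a condition, regions were compared by the same test on the 4 replicates of each region. In fresh-frozen HCl, CA1 had less Camk2b and Camk2d than DG and more Camk4 and Calm2. The called genes were 4 of 9 (2 higher, 2 lower), beside 2526 of 14893 genes (17%) in the whole table. Calm2 had 1.46 (SE 0.17, adjusted p 2.06e-08) and Camk4 had 0.98 (SE 0.18, adjusted p 6.7e-05). On the lower side, Camk2d had −0.87 (SE 0.20, adjusted p 0.00194) and Camk2b had −0.80 (SE 0.17, adjusted p 0.000597). For each of these genes the 4 replicates of one region were above the 4 of the other, which held for 4 of 9 members, beside 2721 of 14893 genes (18.3%). When all replicates were thinned to the smallest total, 245 of 5871 genes were called and 2 members were lost, Camk2b at −0.43 (adjusted p 0.435) and Camk2d with a fold no smaller than before (adjusted p 0.432). Camk2a, at −0.46 (adjusted p 0.0629), was called without CA1 replicate 2, at −0.63 (adjusted p 0.0183), and without DG replicate 3, at −0.56 (adjusted p 0.0451). It was also called with replicate number as a block, at −0.48 (adjusted p 0.0146), where 2759 of 14893 genes were called, although replicates of the same number were not alike between these regions.

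CA3 had more Camk4 than DG in fresh-frozen HCl, and less Camk2b, Camk2g and Ppp3ca. These were 4 of 9 genes (1 higher, 3 lower), beside 1363 of 15161 genes (8.99%). Camk4 had 1.21 (SE 0.16, adjusted p 1.6e-05), a fold of 2.31. Camk2g had −1.13 (SE 0.18, adjusted p 0.000177) and Camk2b had −0.67 (SE 0.13, adjusted p 0.00158). Ppp3ca had −0.39 (SE 0.12, adjusted p 0.0432), and all 4 CA3 replicates were under all 4 of DG. Such full separation held for 5 of 9 members, beside 2163 of 15161 genes (14.3%). Ppp3ca was called in only 1 of 8 fits that left out a replicate, the one without DG replicate 3: without CA3 replicates 1, 2, 3 or 4 in turn, or DG replicates 1, 2 or 4, its adjusted p was 0.0521 to 0.139. With counts corrected for repeated tags it was at −0.21 (adjusted p 0.387), and it was not called with DESeq2's size factors (adjusted p 0.0508) or with no filter (adjusted p 0.06). Thinning left Camk4 alone called, beside 116 of 5802 genes, with Camk2g at −1.37 (adjusted p 0.153), Camk2b at −0.43 (adjusted p 0.348) and Ppp3ca at −0.34 (adjusted p 0.466). Replicates of the same number were alike between CA3 and DG here, and with replicate number as a block Camk2a was at −0.32 (adjusted p 0.00472) and Camk2d at −0.40 (adjusted p 0.0251), both then called, beside 2619 of 15161 genes. Without the block they were at −0.33 (adjusted p 0.112) and −0.41 (adjusted p 0.136).

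CA1 had more Camk2g and more Calm2 than CA3 in fresh-frozen HCl. Those were 2 of 9 genes, both higher, beside 1428 of 15637 genes (9.13%). Camk2g had 0.92 (SE 0.20, adjusted p 0.00189), and Calm2 had 1.14 (SE 0.15, adjusted p 2.43e-06); all 4 CA1 replicates were above all 4 of CA3 for both. Regions were fully apart for 2 of 9 members, beside 2093 of 15637 genes (13.4%). Camk2g was 1.69 (adjusted p 0.0224) after thinning. Camk2d was not called, at −0.48 (adjusted p 0.106). Each left-out replicate gave the same count.

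In fresh-frozen TE, CA1 again had less Camk2d and more Camk4 and Calm2 than DG. The called genes were 3 of 9 (2 higher, 1 lower), beside 1420 of 14011 genes (10.1%). Camk2d had −0.79 (SE 0.16, adjusted p 0.000833), Camk4 had 0.73 (SE 0.18, adjusted p 0.00349) and Calm2 had 0.55 (SE 0.15, adjusted p 0.0137). In each, the 4 replicates of one region were above the 4 of the other, as for 3 of 9 members, beside 2003 of 14011 genes (14.3%). After thinning, with 151 of 5427 genes called, Camk2d was at −0.83 (adjusted p 0.431) and Calm2 at 0.75 (adjusted p 0.19), neither called, and Camk4 was at 1.30 (adjusted p 0.0438). Calm2 was not called without CA1 replicate 1, at 0.43 (adjusted p 0.0874), or without DG replicate 3, at 0.47 (adjusted p 0.0718). Replicates of the same number were alike here too, and with the block Camk2a was called at −0.24 (adjusted p 0.0374), against −0.26 (adjusted p 0.322) without it, beside 2262 of 14011 genes.

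CA3 had more Camk4 than DG in fresh-frozen TE. No other gene was called. That was 1 of 9 genes, beside 1138 of 14386 genes (7.91%), at 1.05 (SE 0.17, adjusted p 6.41e-05) and with every CA3 replicate above every DG replicate. The regions were fully apart for 4 of 9 members, beside 1772 of 14386 genes (12.3%). Thinned, Camk4 was at 1.26 (adjusted p 0.0652) and was not called, beside 94 of 5385 genes that were. Camk2a, at −0.38 (adjusted p 0.19), and Ppp3ca, at −0.39 (adjusted p 0.131), were both called without CA3 replicate 4, at −0.53 (adjusted p 0.0404) and −0.54 (adjusted p 0.0208), which made the count 3. With the block the count was 4, beside 1946 of 14386 genes, as Camk2a was at −0.36 (adjusted p 0.00317), Camk2b at −0.41 (adjusted p 0.00129) and Ppp3ca at −0.41 (adjusted p 0.000342).

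Between CA1 and CA3 in fresh-frozen TE edgeR called none of the members. The count was 0 of 9, beside 640 of 14544 genes (4.4%). The regions were fully apart for 2 of 9 members, beside 1388 of 14544 genes (9.54%). At an unadjusted p under 0.05 there were 2 members, and DESeq2 called 0 members, beside 540 of 9184 genes. The largest differences were Camk2d at −0.45 (adjusted p 0.157) and Calm3 at 0.35 (adjusted p 0.349). With the block both were called, beside 1222 of 14544 genes, Camk2d at −0.45 (adjusted p 0.0222) and Calm3 at 0.35 (adjusted p 0.0425).

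In fixed frozen TE, CA1 had less Camk2d, Camk2g and Camk2a than DG and more Calm2. The called genes were 4 of 9 (1 higher, 3 lower), beside 764 of 9385 genes (8.14%). Camk2d had −2.63 (SE 0.46, adjusted p 8.33e-07) and Calm2 had 0.85 (SE 0.16, adjusted p 7.43e-06), each with the regions fully apart, as for 2 of 9 members, beside 1082 of 9385 genes (11.5%). Camk2a had −0.57 (SE 0.17, adjusted p 0.0115) and Camk2g had −0.76 (SE 0.25, adjusted p 0.0317), with replicates of the regions overlapping. Camk2a was not called without CA1 replicate 1 (−0.40, adjusted p 0.166), CA1 replicate 4 (−0.52, adjusted p 0.0554), DG replicate 2 (−0.47, adjusted p 0.0838) or DG replicate 3 (−0.45, adjusted p 0.171). Camk2g was not called without CA1 replicates 2, 3 or 4 or DG replicates 1, 2 or 4, with an adjusted p of 0.0709 to 0.211. Without CA1 replicate 4, or without DG replicate 2, the count was 2. DESeq2 called neither, with Camk2a at −0.52 (adjusted p 0.0977) and Camk2g at an adjusted p of 0.278. Camk2g was also not called with DESeq2's size factors (0.054), no filter (0.0732) or filterByExpr (0.0991), nor Camk2a after thinning, at −0.44 (adjusted p 0.349), where Camk2g was called at −1.41 and 214 of 5111 genes were called. With the block Ppp3ca was called at 0.33 (adjusted p 0.000112) and Camk2b at −0.29 (adjusted p 0.0287), beside 883 of 9385 genes. Without it they were at 0.33 (adjusted p 0.256) and −0.28 (adjusted p 0.347). Same-number replicates did not pass the rule for pairs in the fixed conditions. Even so, for each pair of regions there, 6 to 8 of the 8 replicates were most alike to the same number in the other region.

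CA3 had less Camk2g than DG in fixed frozen TE and more Camk4. These were 2 of 9 genes (1 higher, 1 lower), beside 867 of 9353 genes (9.27%). Camk2g had −1.12 (SE 0.26, adjusted p 0.00055), with 1 DG replicate among the CA3 values. Camk4 had 0.97 (SE 0.23, adjusted p 0.000613), with CA3 fully above DG; regions were fully apart for 4 of 9 members, beside 1208 of 9353 genes (12.9%). Camk4 fell to 0.35 (adjusted p 0.716) after thinning and was not called, beside 211 of 5100 genes that were. Camk2b, at −0.39 (adjusted p 0.0893), was called once counts were corrected for repeated tags, at −0.42 (adjusted p 0.0432), and with the block, at −0.38 (adjusted p 0.00628), beside 909 of 9353 genes.

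CA1 had more Ppp3ca and Calm2 than CA3 in fixed frozen TE and less Camk2d and Camk4. These were 4 of 9 genes (2 higher, 2 lower), beside 597 of 8286 genes (7.2%). Ppp3ca had 0.56 (SE 0.15, adjusted p 0.00626) and Calm2 had 0.62 (SE 0.16, adjusted p 0.00269), both with CA1 fully above CA3. Camk2d had −2.04 (SE 0.58, adjusted p 0.00964) with CA1 fully under CA3, and Camk4 had −0.75 (SE 0.25, adjusted p 0.0408) with 1 CA1 value above the lowest of CA3. Regions were fully apart for 3 of 9 members, beside 887 of 8286 genes (10.7%). After thinning Calm2 alone was called, beside 224 of 5011 genes, with Ppp3ca at 0.58 (adjusted p 0.105), Camk2d at −2.14 (adjusted p 0.127) and Camk4 at −0.46 (adjusted p 0.634). Camk2d was not called without CA1 replicate 2 (−1.89, adjusted p 0.0634) or 3 (−1.76, adjusted p 0.065), nor by DESeq2. Camk4 was not called without CA1 replicates 2, 3 or 4 or CA3 replicates 1, 3 or 4, with an adjusted p of 0.0629 to 0.158, nor by DESeq2 (0.156) or with no filter (0.0915). Calm3 was called with the block alone, at 0.33 (adjusted p 0.034), beside 700 of 8286 genes. Ppp3ca was not called without CA1 replicate 4 (0.46, adjusted p 0.052) or CA3 replicate 1 (0.51, adjusted p 0.0598). Without CA1 replicate 2, 3 or 4, or CA3 replicate 1, the count was 2.

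In paraffin TE, edgeR called no member between CA1 and DG. The count was 0 of 9, beside 295 of 8969 genes (3.29%). At an unadjusted p under 0.05 there were 0 members, and DESeq2 called 0 members, beside 110 of 2881 genes. With DESeq2's size factors the median of all genes moved from −0.18 to −0.06 in that comparison. CA3 had more Nrgn than DG, which was 1 of 9 genes, beside 301 of 9380 genes (3.21%). Nrgn had 1.11 (SE 0.27, adjusted p 0.00591), and all 4 CA3 replicates were above at least 3 of the 4 DG replicates. It was not called without CA3 replicate 2 (0.84, adjusted p 0.13), CA3 replicate 3 (0.81, adjusted p 0.114) or DG replicate 2 (0.99, adjusted p 0.0842), and the count was then 0. CA1 had less Nrgn than CA3, which was also 1 of 9 genes, beside 177 of 7495 genes (2.36%). That difference was −0.91 (SE 0.28, adjusted p 0.0479), with overlap. It was not called without CA1 replicate 1 (−0.81, adjusted p 0.22), 2 (−0.87, adjusted p 0.189) or 4 (−0.87, adjusted p 0.177), or CA3 replicate 2 (−0.72, adjusted p 0.339) or 3 (−0.67, adjusted p 0.303). DESeq2 did not call it either, at −0.94 (adjusted p 0.148), nor did fits with corrected counts (adjusted p 0.0631), filterByExpr (0.0927) or thinning (0.057). Calm2, lowest in CA1 in this condition, was not called, at 0.61 (adjusted p 0.164) for CA3 over DG and −0.75 (adjusted p 0.164) for CA1 over CA3. The second was called with the block, at −0.80 (adjusted p 0.0284), beside 240 of 7495 genes.

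**Figure D3:**
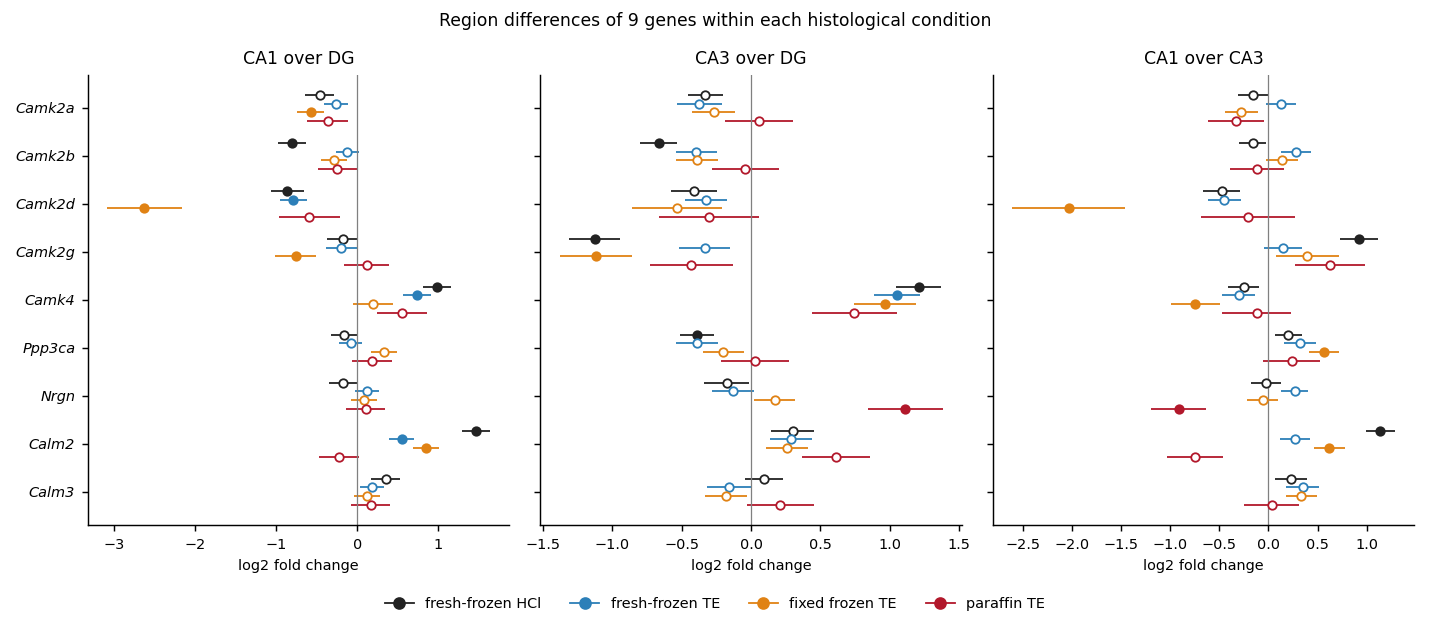
Log2 fold change between regions (x axis) of each of the 9 genes (y axis) within each of the 4 conditions (colour), 1 panel per pair of regions. Bars are 1 SE and filled points have an adjusted p under 0.05; Camk4 lies above 0 for CA3 over DG in every condition, and Camk2d lies under 0 for CA1 over DG in every condition.

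Whether a difference between regions itself differed between conditions was tested over the 48 replicates by edgeR's interaction test. It called Calm2 and Nrgn, 2 of 9 genes, beside 508 of 18884 genes (2.69%). Calm2 had an adjusted p of 6.26e-08. CA1 was above DG by a log2 fold change of 1.46 in fresh-frozen HCl, 0.55 in fresh-frozen TE and 0.85 in fixed frozen TE, and under it at −0.23 in paraffin TE. Nrgn had an adjusted p of 0.00666, which was 0.741 without replicate 2 of every group, leaving 1 of 9 genes. The other adjusted p-values were 0.247 for Camk2b, 0.252 for Camk2g, 0.289 for Camk2d, 0.626 for Ppp3ca, 0.735 for Camk4, 0.786 for Camk2a and 0.813 for Calm3. The test had no replicate block, so it made no use of the likeness between replicates of the same number. For those 7 genes, by this test, a call in one condition and not in another is not shown to be a difference between conditions.

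Conditions were compared with region as a covariate on the 24 replicates of each pair of conditions. The 3 comparisons share replicates of fresh-frozen TE and fixed frozen TE. Each condition was also its own set of libraries, so condition and library preparation cannot be told apart.

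Between HCl-treated and TE-heated fresh-frozen sections, Camk2d and Ppp3ca were lower after HCl. These were 2 of 9 genes, both lower, beside 5550 of 18164 genes (30.6%), so the share of members was not above that of all genes. Camk2d had −0.87 (SE 0.10, adjusted p 4.13e-10), and it was lower in 3 of 3 regions, with the conditions fully apart in CA3 and DG. After thinning it was at −0.71 (adjusted p 0.0883) and was not called, while Camk2b was called at 0.46 (adjusted p 0.018), beside 730 of 9531 genes. Ppp3ca had −0.55 (SE 0.09, adjusted p 4.81e-06) and was lower in 3 of 3 regions, fully apart in DG alone by the deposited counts. Over the other settings it lay between −0.73 and −0.40 and was called in 7 of 7. With counts corrected for repeated tags its means after HCl were 3887 ± 620 CPM in CA1, 3511 ± 501 in CA3 and 4396 ± 302 in DG. In TE they were 6323 ± 769, 4814 ± 336 and 6017 ± 234. Calm2 moved by region: every HCl replicate was above every TE replicate in CA1 and under every one in CA3 and DG. HCl and TE were fully apart for 20.1% of all genes in CA1, 18.4% in CA3 and 18.9% in DG. Over the regions Calm2 had −0.17 (adjusted p 0.255). When replicates were scaled by their totals alone, the count was 5, beside 6009 of 18164 genes, with Camk2b at 0.24 (adjusted p 0.0395), Camk2g at 0.36 (adjusted p 0.0174) and Calm3 at 0.25 (adjusted p 0.048) also called. That scaling moved the median of all genes from 0.10 to 0.24.

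Fixed frozen TE over fresh-frozen TE asks what differs with fixation of the tissue when the heating and the brief post-fixation of sections are the same. More members were called here than in the other comparisons. Calm2, Calm3, Ppp3ca, Camk2g and Camk2b were higher in fixed sections, and Camk2d, Camk2a and Camk4 were lower. These were 8 of 9 genes (5 higher, 3 lower), beside 7733 of 15878 genes (48.7%), each in the same direction in 3 of 3 regions. In fresh-frozen TE Calm2 ranged from 300.3 to 589 CPM and in fixed frozen TE from 1563 to 3376, so no values overlapped. Calm2 had 2.37 (SE 0.10, adjusted p 4.15e-38), a fold of 5.17. Calm3 had 1.33 (SE 0.10, adjusted p 4.66e-20), also with the conditions fully apart in each region. Ppp3ca had 0.87 (SE 0.09, adjusted p 7.63e-14), fully apart in each region; with counts corrected for repeated tags it was 0.38 (adjusted p 0.000151). Camk2a had −1.05 (SE 0.11, adjusted p 8.96e-15) and Camk2d had −1.53 (SE 0.16, adjusted p 7.15e-14), both fully lower in each region. These 2 conditions were fully apart for 30.8% of all genes in CA1, 35.1% in CA3 and 33.6% in DG. Depth and mitochondrial share differed with the condition: the median total was 629964 UMIs in fresh-frozen TE and 122520 in fixed frozen TE, and the median share of mitochondrial UMIs was 3.56% and 7.44% (8.53% in paraffin TE). With all replicates thinned to the smallest total, 7 of the 8 were called in the same direction, beside 2672 of 8927 genes. The part of the mitochondrial share was not tested, and a small shift from scaling between deep and shallow replicates cannot be told apart from the condition.

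Camk2b was higher in fixed frozen TE in every region without overlap, at 0.44 (SE 0.10, adjusted p 6.19e-05). It was smaller by over 1.5 times without replicate 3 of every group, but was called there, at 0.29 (adjusted p 0.0246), and with corrected counts, at 0.29 (adjusted p 0.011). Camk2g had 0.66 (SE 0.15, adjusted p 0.000118), with overlap in each region. Camk4 had −0.31 (SE 0.13, adjusted p 0.0465) with overlap in each region, and was not called without replicate 2 (−0.25, adjusted p 0.182), by DESeq2 (adjusted p 0.0642) or with totals as the only scaling (adjusted p 0.113), and its direction turned, to 0.05 (adjusted p 0.899), when all replicates were thinned to the smallest total. Nrgn was the member not called, at 0.06 (adjusted p 0.631).

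In paraffin TE, Calm2, Camk2a, Ppp3ca, Nrgn and Camk2b were lower than in fixed frozen TE. Camk2d was higher. These were 6 of 9 genes (1 higher, 5 lower), beside 3419 of 12189 genes (28%). Calm2 had −1.36 (SE 0.14, adjusted p 1.27e-17), fully lower in each of 3 regions. Camk2a had −0.80 (SE 0.14, adjusted p 4.95e-07), lower in 3 of 3 regions and fully so in CA3 and DG. Ppp3ca had −0.77 (SE 0.14, adjusted p 6.47e-07), lower in 3 of 3 and fully so in CA1. Camk2d had 0.63 (SE 0.23, adjusted p 0.0261), higher in 3 of 3 regions and fully so in CA1, and was not called without replicate 1 (0.51, adjusted p 0.171) or 2 (0.57, adjusted p 0.115), nor after thinning (0.71, adjusted p 0.131). The conditions were fully apart for 15.7% of all genes in CA1, 13.9% in CA3 and 19.3% in DG. Camk2b had −0.38 (SE 0.13, adjusted p 0.0218), lower in 3 of 3. It was not called without replicates 1, 3 or 4, with an adjusted p of 0.0906 to 0.103, and was at −0.18 with DESeq2 (adjusted p 0.082), −0.18 (adjusted p 0.318) with its size factors in edgeR, −0.23 (adjusted p 0.191) with totals alone and −0.22 (adjusted p 0.359) after thinning.

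Nrgn had −0.40 (SE 0.14, adjusted p 0.023) in that comparison and was lower in 2 of 3 regions. It was not called without replicate 1 (−0.27, adjusted p 0.191), 2 (−0.31, adjusted p 0.144) or 4 (−0.35, adjusted p 0.107), nor by DESeq2 (−0.19, adjusted p 0.484), with its size factors (adjusted p 0.313), with totals alone (0.182) or after thinning (0.37), and was −0.63 without replicate 3. Without replicate 1 of every group, the count of called members fell from 6 to 3. Scaling moved these values: DESeq2's size factors took the median of all genes from 0.05 to 0.22 (0.17 with totals alone), and with them Camk2g was called at 0.50 (adjusted p 0.0168) where it was 0.31 (adjusted p 0.173) before. Calm3 had −0.08 (adjusted p 0.684) and Camk4 had −0.20 (adjusted p 0.41).

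Shares within a gene family do not depend on the scaling between replicates. Of the UMIs of the 4 CaMKII genes, Camk2a took 57.5% ± 4.54 in CA1, 59.2% ± 2.32 in CA3 and 53.3% ± 1.69 in DG in fresh-frozen HCl. In fresh-frozen TE it took 59.8% ± 4.48, 60.4% ± 3.88 and 60.1% ± 4.2. Camk2a was thus the larger of the main pair in all 6 fresh-frozen groups. In fixed frozen TE its share was 33.4% ± 6.87, 40.1% ± 2.7 and 36.7% ± 5.99, and Camk2b took 59.4% ± 4.92, 52.7% ± 2.4 and 52.3% ± 2.91. In paraffin TE Camk2a took 26.6% ± 2.7, 30.7% ± 3.86 and 28.4% ± 2.42, against 55.7% ± 4.18, 56% ± 5.71 and 55.6% ± 1.77 for Camk2b. Camk2b was therefore the larger in all 6 fixed groups, and both statements held with counts corrected for repeated tags. Camk2d took from 0.815% (fixed frozen TE CA1) to 6.38% (fresh-frozen TE CA3), and Camk2g from 2.52% (fresh-frozen HCl CA3) to 12.8% (paraffin TE CA1).

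**Figure D4:**
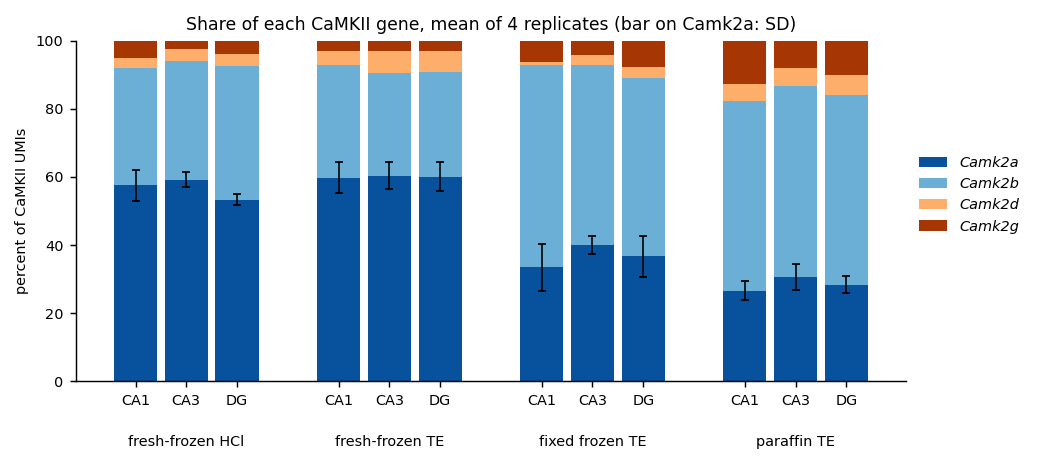
Share of the UMIs of the 4 CaMKII genes taken by each (y axis, percent) in the 12 groups of region and condition (x axis). Bars are means of 4 replicates with the SD on Camk2a, and the share of Camk2a is above 50% in the fresh-frozen groups and under 41% in the fixed ones.

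Calm2 took 37.7% ± 8.19 of the summed Calm2 and Calm3 UMIs in CA1, 24.3% ± 2.78 in CA3 and 21.9% ± 3.37 in DG in fresh-frozen HCl. In fresh-frozen TE it took 32.8% ± 2.26, 34.3% ± 4.21 and 27.6% ± 3.86. It took, in fixed frozen TE, 54.3% ± 5.52, 49.2% ± 4.92 and 42.2% ± 5.81, and in paraffin TE 22.1% ± 7.45, 33.7% ± 7.93 and 27.2% ± 3.39. Its share was thus highest in fixed frozen TE in each region. Ppp3ca took 84.1% to 96.5% of the UMIs of the 3 calcineurin catalytic genes.

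A list of 27 other genes of the same pathway was followed beside the members, among them CaMKII inhibitors, other calmodulin kinases, other calcineurin subunits, calcineurin regulators, targets and small calmodulin-binding proteins. Over the 12 libraries, CA1 over DG called 7 of 27 genes (4 higher, 3 lower), against 4.64% higher and 5.52% lower of all genes. CA3 over DG called 4 of 27 genes (3 higher, 1 lower), against 3.88% higher and 4.3% lower of all genes, and CA1 over CA3 called 3 of 27 genes (0 higher, 3 lower), against 2.05% higher and 2.61% lower of all genes. Pcp4, which encodes a small calmodulin-binding protein, was lowest in CA1 and highest in DG in all 4 conditions. Its means in fixed frozen TE were 242 ± 82.5 CPM in CA1, 629.6 ± 234 in CA3 and 1178 ± 177 in DG. Over the libraries it had −1.35 (SE 0.17, adjusted p 2.88e-13) for CA1 over DG and −0.98 (SE 0.17, adjusted p 2.8e-07) for CA3 over DG, each in 4 of 4 conditions. The interaction test called it at an adjusted p of 0.00218, which was 0.116 without replicate 2, and it was the 1 gene of the list called. Camk1d, a kinase of the CaM kinase I family, was highest in CA3, with −1.01 (SE 0.17, adjusted p 3.15e-07) for CA1 over CA3 and 0.87 (SE 0.17, adjusted p 9.37e-06) for CA3 over DG, each in 4 of 4 conditions. Camkk2, which encodes a kinase that activates Camk4 protein, had 0.63 (SE 0.17, adjusted p 0.00372) for CA1 over DG and 0.63 (SE 0.17, adjusted p 0.00379) for CA3 over DG, the same direction as Camk4. The second was not called without the fresh-frozen TE libraries, at 0.61 (adjusted p 0.0711). Camkk1, the related kinase gene of the list, went the other way, with its mean lower in CA1 than in DG in 4 of 4 conditions. It was not called for CA1 over DG over the libraries. In fixed frozen TE it was called at −0.99, and in 4 of 8 fits that left out a replicate.

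Within fresh-frozen HCl, the list had for CA1 over DG 4 of 25 genes (2 higher, 2 lower), against 8.61% higher and 8.35% lower of all genes. For CA3 over DG it had 6 of 25 genes (4 higher, 2 lower), against 4.46% higher and 4.53% lower of all genes, and for CA1 over CA3 4 of 25 genes (1 higher, 3 lower), against 4.07% higher and 5.06% lower of all genes. In fresh-frozen TE, CA1 over DG called 7 of 25 genes (6 higher, 1 lower), against 5.15% higher and 4.99% lower of all genes. For CA3 over DG it had 6 of 25 genes (5 higher, 1 lower), against 4.35% higher and 3.56% lower of all genes, and for CA1 over CA3 3 of 25 genes (1 higher, 2 lower), against 1.99% higher and 2.41% lower of all genes. For fixed frozen TE, CA1 over DG called 6 of 20 genes (1 higher, 5 lower), against 3.36% higher and 4.78% lower of all genes. The next 2 comparisons, CA3 over DG and CA1 over CA3, called 3 of 21 genes (2 higher, 1 lower), against 4.29% higher and 4.98% lower of all genes, and 5 of 18 genes (1 higher, 4 lower), against 3.34% higher and 3.86% lower of all genes. In paraffin TE, CA1 over DG called 2 of 18 genes (0 higher, 2 lower), against 0.87% higher and 2.42% lower of all genes. CA3 over DG called 1 of 20 genes (0 higher, 1 lower), against 1.93% higher and 1.28% lower of all genes, and CA1 over CA3 called 1 of 19 genes (0 higher, 1 lower), against 0.64% higher and 1.72% lower of all genes.

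Between conditions, HCl over TE called in the list 11 of 27 genes (3 higher, 8 lower), against 16.2% higher and 14.3% lower of all genes. Fixed frozen TE over fresh-frozen TE called 17 of 25 genes (8 higher, 9 lower), against 15.8% higher and 32.9% lower of all genes. Paraffin TE over fixed frozen TE called 7 of 24 genes (0 higher, 7 lower), against 13.7% higher and 14.4% lower of all genes. The balance over all genes depended on the fit. HCl over TE had 4178 higher and 1831 lower of 18164 genes with totals as the only scaling, fixed over fresh-frozen TE had 1252 higher and 1420 lower of 8927 genes after thinning, and paraffin over fixed frozen TE had 2353 higher and 1231 lower of 12189 genes with DESeq2's size factors. The median log2 fold change after fixation was 0.44 over the 9 members, −0.26 over the list and −0.39 over all genes tested. That last median was −0.19 with DESeq2 and −0.08 after thinning, each over fewer genes, so the distance of the members from it depends on the fit. In paraffin over fixed frozen TE the 3 medians were −0.38, −0.13 and 0.05. Ppp3r1, the regulatory subunit of calcineurin, was higher in fixed frozen TE at 0.65 (SE 0.11, adjusted p 2.43e-07), and Ppp3cb, its other main catalytic subunit, was lower at −0.82 (SE 0.11, adjusted p 1.21e-09). The CaMKII inhibitor Camk2n1 was lower, at −0.80 (SE 0.11, adjusted p 2.82e-09). Camk2n2, the other CaMKII inhibitor of the list, was higher, at 0.52, and was called in 6 of 7 other settings. After HCl, Ppp3cb had −0.91 (SE 0.09, adjusted p 3.84e-12) and Ppp3r1 had −0.96 (SE 0.10, adjusted p 4.17e-11), the direction of Ppp3ca.

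Marker genes of cell types and compartments, 4 per list, were summed as CPM in each group. Those of CA1 pyramidal cells averaged 633, 729, 755 and 275 CPM in CA1 (HCl, TE, fixed frozen and paraffin in turn) and at most 179 elsewhere. Dentate granule markers averaged 1502, 1472, 1258 and 751 CPM in DG and at most 298 elsewhere. CA3 pyramidal markers averaged 875, 937, 1060.1 and 1391 CPM in CA3. These were highest in CA3 in each condition, but DG had 679, 652, 606 and 639.9 and CA1 had 182, 308, 345 and 652. CA2 markers stayed between 40.6 and 194 CPM. Each of these 3 lists was thus highest in its own region in each condition. In paraffin TE the CA1 markers of CA1 and the granule markers of DG were at their lowest, and the CA3 markers of CA3 and of CA1 at their highest.

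Pan-neuronal markers were highest in CA3 in each condition, at 4516, 5522, 7225 and 8696 CPM. Among the members, Camk4 also had its highest mean in CA3 in each condition, while Camk2g had its lowest mean there. Oligodendrocyte markers were highest in CA1 in each condition, at 11010.3, 6513, 9131 and 15014 CPM. Dendritic mRNAs averaged 1361 to 1853 CPM in the fresh-frozen groups and 609 to 889 in the fixed ones. Of the members called between fixed frozen TE and fresh-frozen TE, Camk2a, Camk2d and Camk4 were also lower after fixation, while 5 were higher. Astrocyte markers averaged 1861 to 3868 CPM in the fresh-frozen groups and 559 to 997 in the fixed ones, and endothelial markers 197 to 309 and 63.5 to 140.4. Interneuron markers ranged from 511 to 1026 CPM, microglia from 58.8 to 143 and choroid plexus from 20.8 to 2332. The part of each of these lists in the differences of the members was not tested.

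Genes with a pattern like that of each member were found over the 12 groups, as the Pearson correlation of log2 (CPM + 10) after removing the mean of each condition, among genes with a mean of at least 20 CPM. The 12 points share 4 conditions and 3 regions and were picked as the highest of many, so the correlations describe these groups only. Nearest to Camk2a were Sumo3 (r 0.953), Map3k20 (0.941) and Gm37204 (0.940). Camk2b was nearest to 2300009A05Rik (0.977), Fam122a (0.948) and Ip6k2 (0.938). For Camk2d they were Lrtm2 (0.965), Sema5a (0.952) and Napepld (0.948), and for Camk2g Dhx33 (0.954), Dnah9 (0.931) and Dapk1 (0.926). Camk4 was nearest to Atl1 (0.964), Adam23 (0.951) and Gng3 (0.945), and Ppp3ca to Drd5 (0.953), Gria2 (0.926) and Ppp2r1b (0.925). For Nrgn they were Polr3a (0.954), 4930430E12Rik (0.947) and Gm14336 (0.936). Calm2 was nearest to Sdhb (0.946), Rasd1 (0.945) and Tmsb4x (0.921), and Calm3 to Gm10275 (0.899), Alyref (0.890) and Aldh2 (0.879). Among the 9 genes themselves, Camk2a rose and fell with Camk2b (0.804) and Camk2d (0.793), and Camk4 ran against Camk2b (−0.885) and Camk2g (−0.815). Calm2 and Calm3 had r 0.655.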

How the data were processed

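The deposited counts were used as they stand. In the submitters' processing notes, the authors handled tags with UMI-tools 1.0.0, aligned reads with HISAT2 2.1.0 to GRCm38, counted UMIs per gene with featureCounts 1.6.4 and compared groups with DESeq2 1.20.0. Here, CPM and tests were computed from that count table: edgeR 4.0.16 (TMM scaling, quasi-likelihood, genes with at least 10 UMIs summed) under R 4.3.3, and DESeq2 1.42.0 as the other tool. IDs were matched to GENCODE M21, 32530 of 32546, and 773 genes had no symbol. Corrected counts solve for the molecules that give the observed number of different tags. Same-number replicates were called paired between regions when the correlation of their residuals passed 0.1 in each of 4 pairs over genes averaging 5 UMIs or more; this held for fresh-frozen HCl CA3 with DG (0.228 to 0.433) and the 3 fresh-frozen TE pairs (0.18 to 0.338). Genes named are all 9 members, genes of the list of 27 by role, and the 3 most similar genes per member, and 12 marker lists were summed. Alternatives were other scalings and filters, corrected counts, thinning, a replicate block and leaving out each replicate or condition. Single values of 1 gene of the list of 27 are not reported here. The members and lists were chosen with earlier results of these data known.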

Additional observations from a re-analysis of the deposited data

Results flagged for a closer look

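In a group of 4 replicates, a value was singled out when its gap to the nearest other was a large part of the range of the group (Dixon's ratio at its 95% level). That happened in 8 of 108 groups; chance alone gives about 1 in 20. Most are the highest value: Camk2a in fresh-frozen TE CA3, replicate 4 (2407 CPM, 1232 UMIs, ratio 0.8585), Camk2b in fixed frozen TE CA1, replicate 4 (2085 CPM, 113 UMIs, 0.9324), and Camk2d in paraffin TE CA3, replicate 4 (276 CPM, 11 UMIs, 0.911). Further ones are Camk4 in paraffin TE CA1, replicate 3 (381 CPM, 27 UMIs, 0.8707), and Nrgn in fresh-frozen TE CA3, replicate 3 (1621 CPM, 1512 UMIs, 0.8438). Calm3 had 2 such values, in fresh-frozen HCl CA1, replicate 4 (1729 CPM, 220 UMIs, 0.8982), and in fresh-frozen TE DG, replicate 1 (1102 CPM, 542 UMIs, 0.9164). Calm2 in paraffin TE DG, replicate 1, was the lowest of its group (664 CPM, 98 UMIs, 0.8475). The fresh-frozen HCl CA1 replicate 4 had the smallest total of its condition, 127253 UMIs, with 8.26% mitochondrial UMIs against a median of 2.89%.

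Differences between regions that themselves differed between conditions, by the interaction test, were those of Calm2 (adjusted p 6.262e-08), Nrgn (0.006657) and Pcp4 (0.002184). For Calm2 the adjusted p lay between 6.55e-07 and 5.24e-05 when any replicate number was left out. For Nrgn and Pcp4 it was 0.741 and 0.116 without replicate 2. No cause was tested.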

How the results depend on the processing

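Of the 48 calls among 162 tests of members, 1 changed sign under another setting: Camk4 in fixed frozen TE over fresh-frozen TE was 0.0462 (adjusted p 0.899) once all replicates were thinned to the smallest total, against −0.31. The cause was not tested. The other settings, and the fits with 1 replicate or condition left out, kept the sign of every called member. Of the 48, 13 moved by over 1.5 times under some setting. Ppp3ca in the same comparison was 0.38 with corrected counts against 0.87. Thinning took Camk4 in fixed frozen TE CA3 over DG from 0.97 to 0.35, Camk2g in fixed frozen TE CA1 over DG from −0.76 to −1.41 and in fresh-frozen HCl CA1 over CA3 from 0.92 to 1.69, and Camk4 in fresh-frozen TE CA1 over DG from 0.73 to 1.30. Among the steadiest, Calm2 in fixed over fresh-frozen TE lay between 2.32 and 2.45 over the other settings, Camk4 in CA3 over DG over the 12 libraries between 0.97 and 1.03, and Camk2d in CA1 over DG between −1.03 and −1.01, with −1.20 to −0.80 when a condition was left out.

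Thinning, which leaves each replicate fewer UMIs, lowered many counts of called members. Calls over all genes fell in each of those comparisons too, for instance from 2526 of 14893 to 245 of 5871 genes for fresh-frozen HCl CA1 over DG. For the members, fresh-frozen HCl CA1 over DG went from 4 to 2, CA3 over DG from 4 to 1; fresh-frozen TE CA1 over DG from 3 to 1, CA3 over DG from 1 to 0; fixed frozen TE CA1 over DG from 4 to 3, CA3 over DG from 2 to 1, CA1 over CA3 from 4 to 1; paraffin TE CA1 over CA3 from 1 to 0; paraffin TE over fixed frozen TE from 6 to 3; and fixed over fresh-frozen TE from 8 to 7. DESeq2 gave 2 in place of 4 for fixed frozen TE CA1 over DG and CA1 over CA3, and 0 in place of 1 for paraffin TE CA1 over CA3 and for CA1 over CA3 over the 12 libraries. That last comparison gave 2 with DESeq2's size factors in edgeR and 0 with no filter. Over all genes DESeq2 also called fewer, among fewer genes tested. It called 385 of 6837 for fixed frozen TE CA1 over DG (764 of 9385 by edgeR) and 292 of 5394 (597 of 8286) for CA1 over CA3. For CA1 over CA3 it called 89 of 2555 (177 of 7495) in paraffin TE and 658 of 12294 (881 of 18884) over the 12 libraries. As a share of the genes tested, DESeq2 called fewer than edgeR in these fixed frozen TE comparisons. In the paraffin TE comparison and over the 12 libraries its share was larger than edgeR's, although its count of members was lower. Paraffin TE CA1 over CA3 gave 0 with corrected counts and with filterByExpr. Scaling by totals alone gave 5 in place of 2 for HCl over TE. The cause was not tested.

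With replicate number as a block (pairing), 9 of 12 counts within conditions rose and none fell, but calls over all genes rose in all 12, for instance from 1363 to 2619 of 15161 genes for fresh-frozen HCl CA3 over DG, so the rise is not particular to the members. Fresh-frozen HCl gave 5 in place of 4 for CA1 over DG and 6 in place of 4 for CA3 over DG. Fresh-frozen TE gave 4 in place of 3 for CA1 over DG, 4 in place of 1 for CA3 over DG and 2 in place of 0 for CA1 over CA3. Fixed frozen TE gave 6 in place of 4, 3 in place of 2 and 5 in place of 4 for the same pairs, and paraffin TE 2 in place of 1 for CA1 over CA3.

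Leaving out 1 replicate (or the libraries of 1 condition) gave counts of 0 to 2 for CA1 over CA3, 1 to 3 for CA1 over DG and 2 to 3 for CA3 over DG over the 12 libraries. In fixed frozen TE it gave 2 to 4, 2 to 3 and 2 for the same comparisons, in fresh-frozen TE 0, 2 to 3 and 1 to 3, and in paraffin TE 0 to 1, 0 and 0 to 1. Paraffin TE over fixed frozen TE gave 3 to 5, fixed over fresh-frozen 7 to 8, and the interaction 1 to 2.

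Within conditions, DESeq2 kept 21 of 26 calls, corrected counts 24, thinning 12 and left-out replicates 171 of 208. Over the 12 libraries DESeq2 kept 5 of 6 and left-out conditions 18 of 24. Between conditions DESeq2 kept 13 of 16, thinning 11 and left-out replicates 55 of 64. Depth limits the fixed conditions: Camk2d in fixed frozen TE CA1 rests on 8 UMIs. The tests compare 4 replicates of 1 library with 4 of another, so differences between libraries enter each region and condition result. Among values called in neither, 39 of 709 had another sign under some setting, the largest 0.41 in size.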
